A study of Mus musculus with 4 samples.

Results

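The genes described here are 10 members of the interleukin 6 signalling system: the cytokines Il6, Il11, Lif and Osm, the receptor chains Il6ra, Lifr, Osmr and Il6st, the transcription factor Stat3 and its feedback inhibitor Socs3. They were chosen by name from the pathway, with earlier results of these data known. A gene was read through every probe set (a group of short probes for 1 transcript) whose platform annotation named that gene alone. All 10 of 10 were present among the 18193 genes measured, through 24 probe sets. All 10 passed a filter on low signal, which 13173 genes passed.

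Cytokines of this family act through receptors that share the chain gp130, the product of Il6st. Ligand binding brings gp130 together with a partner chain, such as Lifr or Osmr, and activates Janus kinases, which phosphorylate Stat3. Phosphorylated Stat3 moves to the nucleus and induces Socs3 among other genes, and Socs3 protein then blocks the kinases at gp130. In fat, stromal cells and macrophages are known sources of Il6, and oncostatin M is known to restrain adipocyte differentiation in culture.

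RNA came from brown-like adipocytes grown from the stromal vascular fraction of epididymal white fat, that is, from the mixed preadipocytes, immune cells and vascular cells left when mature fat cells are removed. The donors were male mice aged 4 months, either wild-type or Lgr4 homozygous mutant, where Lgr4 encodes a receptor that binds R-spondins and so strengthens Wnt signalling. Both genotypes were grown with fetal bovine serum and murine bFGF, induced for 48 h with insulin, IBMX, dexamethasone, T3 and troglitazone, and then kept for 6 days with insulin, T3 and troglitazone. Each genotype had 2 arrays, called biological replicates in the labels. The nature of the mutant allele, the strain and whether animals were pooled are not given in the sources used. Adipocyte markers were far higher on both mutant arrays, with values given after the pathway genes.

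Values are log2 signals, on which a difference of 1 is a doubling. A 3' array gives no absolute amount, so signals are compared between arrays for the same probe set and never between genes. Lgr4 itself read 8.65 and 8.20 in wild-type cultures against 6.18 and 6.09 in the mutant, a difference of -2.29 (SE 0.14, adjusted p = 1.45e-05), which checks the labels for the transcript that this probe set detects. A second, dimmer Lgr4 probe set was not lower, at 5.28 and 5.23 against 5.37 and 5.31, and with both averaged the difference was -1.10. Ucp1, the uncoupling protein that defines thermogenic fat cells, read 4.99 and 5.86 in wild-type cultures, below the signal filter of 6.13, and 8.17 and 7.49 in mutant cultures, so the name brown-like adipocyte was not borne out by this marker on the wild-type arrays.

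Il6 and Socs3 showed the largest differences of the 10 genes, and their promoters are shown for that reason. Capitals mark matches to motifs searched on both strands, and the windows run from 250 bases before to 50 bases after the RefSeq start (GRCm38.p6). Il6 lies at chr5:30012864-30013163, plus strand, and Socs3 at chr11:117969317-117969616, minus strand.
Il6: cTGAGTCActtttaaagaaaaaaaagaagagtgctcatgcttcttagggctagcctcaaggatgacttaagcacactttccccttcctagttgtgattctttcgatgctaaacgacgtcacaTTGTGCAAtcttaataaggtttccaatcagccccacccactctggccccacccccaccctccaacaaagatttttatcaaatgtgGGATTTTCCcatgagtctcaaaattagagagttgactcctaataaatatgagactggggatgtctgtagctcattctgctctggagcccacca
Socs3: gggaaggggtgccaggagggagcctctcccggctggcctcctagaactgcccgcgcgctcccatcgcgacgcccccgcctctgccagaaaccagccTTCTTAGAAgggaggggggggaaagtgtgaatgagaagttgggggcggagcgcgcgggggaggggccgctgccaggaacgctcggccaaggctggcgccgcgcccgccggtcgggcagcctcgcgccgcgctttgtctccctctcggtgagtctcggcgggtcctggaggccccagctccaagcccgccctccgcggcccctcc

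In the Il6 window the capitals mark, in order, an AP-1 match (TGANTCA, held by 7.81% of 32851 promoter windows of this length), a C/EBP match (TTGCNNAA, 10.8%) and an NF-kB match (GGANTTTCC, 1.25%). The Socs3 window holds a match to the palindrome that STAT proteins bind (TTCNNNGAA, 8.30% of windows), 154 bases before the start. No other member with a window in the RefSeq table, 9 of 10 genes having one, held the STAT or the NF-kB letters. The cAMP element TGACGTCA, held by 1.79% of windows, was in none of them. AP-1 matches were also present for Il11, Lif and Osmr. A match describes letters in these windows and was not tied to any binding measurement.

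Most of the family was lower in the mutant cultures. Of the 10 genes, 7 were lower (Il6, Socs3, Osmr, Lif, Lifr, Il6st and Il11), none was higher, and 3 did not pass the test (Stat3, Osm and Il6ra). Among all 13173 genes tested 29.8% were called, 11.1% higher and 18.7% lower, so a share of 70% lower stood above the background. Because the genes were chosen with earlier results of these data known, this share is descriptive only. The median difference of the 10 genes was -0.47 against -0.03 over all genes tested. At an unadjusted p under 0.05 limma gave 8 lower and 0 higher. The share of all genes at this unadjusted level was not computed and is at least the 29.8% called after adjustment. Unadjusted counts, here and for the lists below, therefore have no background beside them. Both mutant values lay below both wild-type values in 8 of the 10 genes, which was so for 39.9% of all genes tested, and in none did both lie above (28.9% of all genes). Leaving out mutant replicate 1 gave 4 of 10 lower, where 7.91% of all genes were lower, and leaving out mutant replicate 2 gave 6, where 8.90% were. In these fits 1 mutant array remains and is assumed to vary like the wild-type pair, which gives the spread together with limma's prior over all genes. For Il11 the SE then rose from 0.09 to 0.17 while the difference went from -0.37 to -0.33 without mutant replicate 1 and -0.42 without mutant replicate 2. With no filter on low signal 7 of 10 were also lower, where 12.7% of all 18193 genes were.

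**Figure D1:**
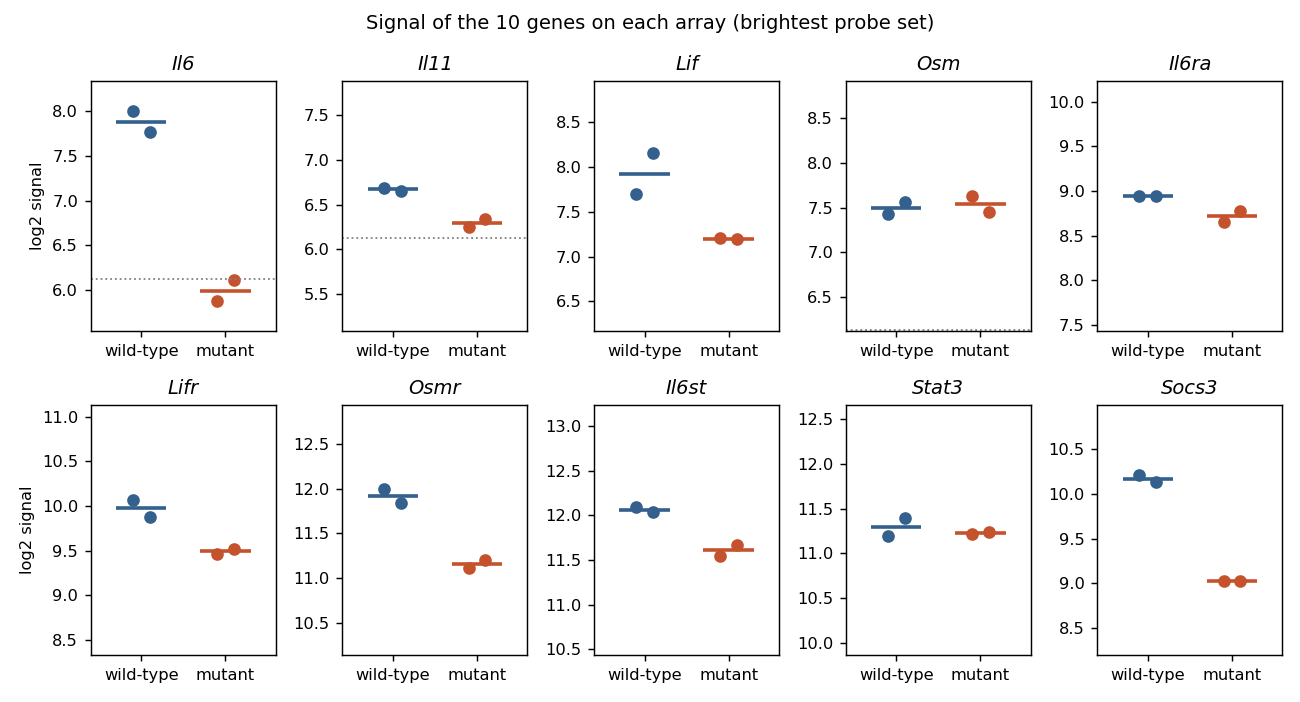
Log2 signal of each gene on the wild-type arrays (blue) and the mutant arrays (orange), 2 per genotype, read through its brightest probe set; points are arrays, bars are genotype means, each panel spans 2.8 log2 units, and the dotted line is the signal filter of 6.13. In 8 panels both mutant points lie below both wild-type points, and in those of Osm and Stat3 they overlap.

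Il6, the cytokine that gives the family its name, had the largest difference. It read 8.00 and 7.77 in wild-type cultures against 5.88 and 6.11 in the mutant. Both mutant values lay below the signal filter, so the mutant level was close to background and the groups were far apart. The difference was -1.89 (SE 0.12, 95% interval -2.17 to -1.61, adjusted p = 1.66e-05), or 3.71-fold lower signal as measured. The gene passed the filter through its wild-type signal, so this fold is against a level near background and its size is not exact. A single probe set reads this gene.

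Lif, the leukaemia inhibitory factor, also fell, with a wide spread in the wild-type pair. Its values were 7.70 and 8.16 in wild-type cultures against 7.20 and 7.20 in the mutant, so the groups did not overlap but the lower wild-type array lay nearer to the mutant pair. Its difference was -0.73 (SE 0.15, adjusted p = 0.00734), or 1.66-fold. The other Lif probe set lay below the filter, at 5.31 and 5.17 against 5.02 and 5.13, and averaging both gave -0.45 (adjusted p = 0.0114).

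Il11, a cytokine of stromal cells linked to fibrosis, was slightly lower, at 6.69 and 6.66 against 6.25 and 6.34. All 4 values were near the filter and the groups did not overlap. Its difference of -0.37 (SE 0.09, adjusted p = 0.0188) was no longer called when mutant replicate 1 was left out (adjusted p = 0.236), nor when mutant replicate 2 was (0.109), over a range of 0.00555 to 0.236 in its alternatives, and it was not tested with the filter at the 50th percentile.

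Oncostatin M (Osm), a cytokine made mainly by blood-derived cells, did not follow. It read 7.42 and 7.56 in wild-type cultures against 7.63 and 7.45 in the mutant, which overlap. Its difference of 0.05 had a 95% interval from -0.20 to 0.29 (adjusted p = 0.771), so a change as large as that of Lif lay outside the interval.

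Among the receptors, Osmr fell most. Osmr, the chain that pairs with gp130 to bind oncostatin M, read 12.00 and 11.84 in wild-type cultures against 11.11 and 11.20 in the mutant, without overlap. The difference was -0.76 (SE 0.10, 95% interval -0.99 to -0.53, adjusted p = 9.59e-04), or 1.70-fold. All 3 Osmr probe sets had both mutant arrays below both wild-type arrays, with differences from -0.76 to -0.45, although the dimmest lay below the filter.

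Lifr, the partner chain for Lif, read 10.07 and 9.88 against 9.47 and 9.52, again without overlap. It fell by 0.48 (SE 0.10, adjusted p = 0.00947), or 1.40-fold. A second Lifr probe set differed by -0.50, and the dimmest by -0.05 with overlapping arrays (6.41 and 6.37 against 6.23 and 6.44). Without mutant replicate 1 the Lifr call ended (-0.46, adjusted p = 0.0874, over a range of 2.08e-04 to 0.0874 in its alternatives).

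Il6st, which encodes the shared chain gp130, was lower by a similar amount. The brightest of its 4 probe sets read 12.09 and 12.04 in wild-type cultures against 11.55 and 11.67 in the mutant. The groups were separate, with a difference of -0.45 (SE 0.10, adjusted p = 0.00962), or 1.37-fold. The next brightest differed by -0.46 and also passed when all probe sets were tested, whereas the others differed by -0.23 and -0.19 and did not. This call too ended without mutant replicate 1 (-0.39, adjusted p = 0.145, over a range of 5.65e-04 to 0.145 in its alternatives).

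Il6ra, the chain that binds interleukin 6 itself, read 8.95 and 8.94 in wild-type cultures against 8.66 and 8.78 in the mutant. The groups did not overlap, but the difference of -0.23 (95% interval -0.44 to -0.01) did not pass (adjusted p = 0.111). Its second probe set differed by -0.01, at 7.85 and 7.82 against 7.75 and 7.91, with overlap.

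**Figure D2:**
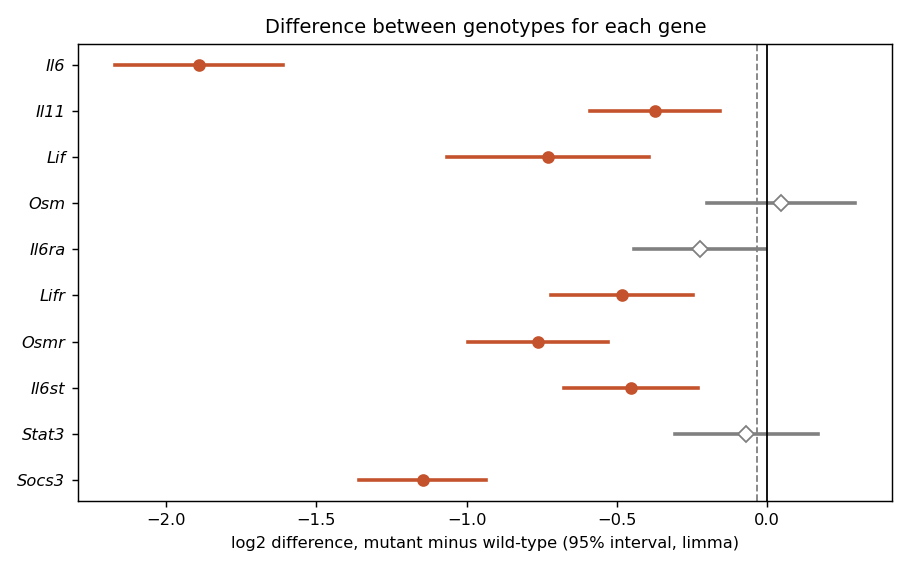
Log2 difference (mutant minus wild-type) of each gene with its 95% interval from limma; filled orange circles passed an adjusted p of 0.05, open grey diamonds did not, and the dashed line is the median of all genes tested (-0.03). Il6 lies at -1.89 and Socs3 at -1.15, while the intervals of Osm and Stat3 include 0.

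Stat3, the factor that carries the signal to the nucleus, did not differ beyond the spread between arrays in its mRNA. Its brightest probe set read 11.20 and 11.40 in wild-type cultures against 11.21 and 11.24 in the mutant, the mutant values lying between the wild-type ones. The difference was -0.07 (SE 0.10, 95% interval -0.31 to 0.17, adjusted p = 0.650). Its 4 probe sets went both ways, from -0.07 to 0.19, and none passed when every probe set was tested (adjusted p 0.299 to 0.954). The lowest bound of the interval, -0.31, lies above the differences measured for Socs3 and for Il6. Phosphorylated Stat3 protein, on which its activity depends, is not read by these arrays.

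Socs3, the feedback inhibitor that Stat3 induces and whose promoter with its STAT match is printed above, was clearly lower. It read 10.21 and 10.14 in wild-type cultures against 9.03 and 9.03 in the mutant, and the gap between the groups was many times the spread within each. Its difference was -1.15 (SE 0.09, 95% interval -1.36 to -0.93, adjusted p = 6.34e-05), or 2.21-fold. The brightest probe set carries the suffix _x_at, which the manufacturer gives to probe sets that share probes with other transcripts, as does the second (-1.02). The third has no such suffix and read 8.35 and 8.78 against 7.82 and 7.79, a difference of -0.76 that also passed (adjusted p = 0.0124 with every probe set tested).

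Both mutant arrays lay below both wild-type arrays in 16 of the 24 probe sets, against 31.6% of all probe sets naming 1 gene. Both lay above in 1, a Stat3 probe set, and the share of all probe sets lying above was not computed. Among all genes tested, read through their brightest probe sets, it was 28.9%. With every probe set tested on its own and no filter, 13 of the 24 were called, all lower, where 9.56% of all probe sets were called lower. Probe sets of a gene read the same RNA and are not replicates.

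**Figure D3:**
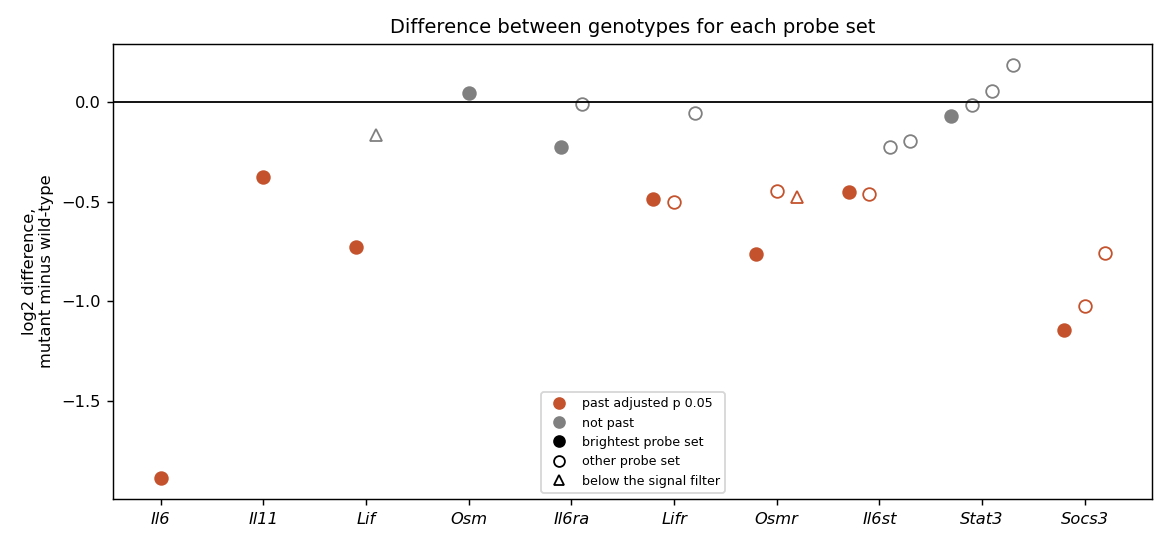
Log2 difference (mutant minus wild-type) of each of the 24 probe sets, grouped by gene; filled symbols are the brightest probe set of a gene, open symbols the others, triangles lie below the signal filter, and orange marks an adjusted p under 0.05 over every probe set. All 3 probe sets of Osmr and of Socs3 are orange, whereas the 4 of Stat3 lie between -0.07 and 0.19.

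The other cytokines and receptors that signal through gp130 or a related chain gave no call. Of 11 listed genes, 6 were measured and tested (Ctf1, Clcf1, Ebi3, Il27ra, Cntfr and Il31ra), and in limma 0 passed, with 2 higher and 0 lower at an unadjusted p under 0.05. Their median difference was 0.02. A share of 29.8% of all genes tested was called, so with 6 genes tested a count of 0 is no result about the list. Ctf1, cardiotrophin 1, stood at 7.97 in mutant against 7.70 in wild-type cultures on average (0.27, adjusted p = 0.0734). The remaining 5 had no probe set naming them alone and were not analysed here.

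Among 18 kinases, STAT proteins and inhibitors of the pathway tested there were 2 rises, 5 falls and 11 genes not past the test. Rises made up 11.1% and falls 18.7% of all genes tested, so the rises were no more frequent than the background. The list had a median difference of -0.21 against -0.03 over all genes tested. Jak2, a Janus kinase bound to gp130, read 9.89 and 9.69 in wild-type cultures against 9.22 and 9.28 in the mutant, a difference of -0.54 (adjusted p = 0.00617). Socs5, another member of the Socs family, fell by 0.46 (9.48 and 9.37 against 8.86 and 9.06). Both calls ended without mutant replicate 1 (Jak2 adjusted p = 0.0535, range over its alternatives 2.79e-05 to 0.0535; Socs5 0.18, range 4.13e-04 to 0.18).

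The genes that rose were Cish and Stat5a. Cish, a Socs family gene that Stat5 induces, rose from 7.30 and 7.53 to 7.95 and 7.96 (0.55, adjusted p = 0.00655). Stat5a rose from 6.66 and 6.80 to 7.19 and 7.21 (0.47, adjusted p = 0.00842). Its relative Stat5b did not pass (-0.04, adjusted p = 0.825). Socs2, which Stat5 also induces and which was named after its values were seen, went the other way, from 10.30 and 10.14 to 9.85 and 9.93 (-0.34, adjusted p = 0.0377). The Socs2 call ended in 7 of 13 alternatives (adjusted p 0.00519 to 0.298), among them those leaving out wild-type replicate 1 (-0.25, 0.0522), mutant replicate 1 (-0.30, 0.298) and mutant replicate 2 (-0.37, 0.165). The Stat5a call was lost when either mutant array was left out (adjusted p = 0.0701 for mutant replicate 1 and 0.0758 for mutant replicate 2, range over its alternatives 3.43e-04 to 0.0758). The phosphatase gene Ptpn1, also named after its values were seen, fell from 10.91 and 11.06 to 10.52 and 10.54 (-0.46, adjusted p = 0.00983). It passed in 11 of 13 alternatives. The Ptpn1 call was lost in the other 2, which left out mutant replicate 1 (-0.44) or mutant replicate 2 (-0.47). Jak1, the main kinase at gp130, was named after its values were seen. It read 11.56 and 11.37 against 11.14 and 11.15, and its difference of -0.32 passed narrowly (adjusted p = 0.0485). The Jak1 call ended in 7 of 13 alternatives, among them those leaving out wild-type replicate 1 (-0.22, adjusted p = 0.0738), mutant replicate 1 (-0.31, 0.278) and mutant replicate 2 (-0.32, 0.247), over a range of 0.00463 to 0.278.

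Genes known to be induced through Stat3 in many cells were called in both directions. Of 23 tested, 11 fell, 6 rose and 6 did not pass, where 18.7% of all genes tested fell and 11.1% rose. Their median difference was -0.34 against -0.03 over all genes tested. The 4 largest differences were rises. Steap4, a metalloreductase of fat, rose from 9.40 and 9.04 to 12.16 and 12.21 (2.96, adjusted p = 1.87e-06). Serpina3n, a protease inhibitor, rose by 1.50 (10.25 and 10.92 against 11.96 and 12.20). Lipocalin 2 (Lcn2) rose by 1.43 (6.79 and 6.97 against 8.18 and 8.45). Haptoglobin (Hp) rose by 1.18 (12.39 and 12.44 against 13.62 and 13.57).

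Of the 11 genes of that list that fell, the following 4 were named after their values were seen. Ccl2, a chemokine that attracts monocytes, fell from 10.92 and 11.06 to 9.81 and 9.93 (-1.12, adjusted p = 1.20e-04). Pim1, a kinase commonly used as a readout of STAT activity, fell from 9.68 and 9.76 to 8.50 and 8.78 (-1.08, adjusted p = 3.25e-04). Fgl2 (-0.94) and the immediate-early gene Ier3 (-0.93) fell without overlap between the groups.

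Of 14 inducers of Il6 and regulators of its mRNA tested, 3 fell, 1 rose and 10 did not pass, with a median difference of -0.16. A share of 29.8% of all genes tested was called, so these counts were near the background and are no result about the list. Tlr4, the receptor for bacterial lipopolysaccharide, fell from 9.85 and 9.64 to 8.86 and 8.80 (-0.92, adjusted p = 4.77e-04). Il1rap, the accessory chain of the interleukin 1 receptor, fell by 0.82 (9.25 and 8.87 against 8.06 and 8.41). The cytokines Il1b (0.13, adjusted p = 0.319) and Tnf (0.03, adjusted p = 0.860) did not pass. Nor did the Tnf receptor gene Tnfrsf1a (0.003, adjusted p = 0.985) or the interleukin 1 receptor gene Il1r1 (-0.21, adjusted p = 0.189).

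Nfkbiz, a nuclear cofactor needed for Il6 transcription in macrophages, differed by -0.41 (adjusted p = 0.0323), and Zc3h12a, which encodes a nuclease that degrades Il6 mRNA, by 0.40 (adjusted p = 0.0209). Both calls were lost when mutant replicate 1 was left out (adjusted p = 0.104 and 0.235) and when mutant replicate 2 was (0.173 and 0.0681). Nfkbiz also lost its call with all probe sets averaged (-0.28, 0.0592) and after a second quantile normalization (-0.34, 0.0599), over a range of 0.00117 to 0.173. Without wild-type replicate 1 its difference was -0.26 (adjusted p = 0.047). Zc3h12a lost it with all probe sets averaged (0.27, 0.0662), over a range of 0.00257 to 0.235.

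**Figure D4:**
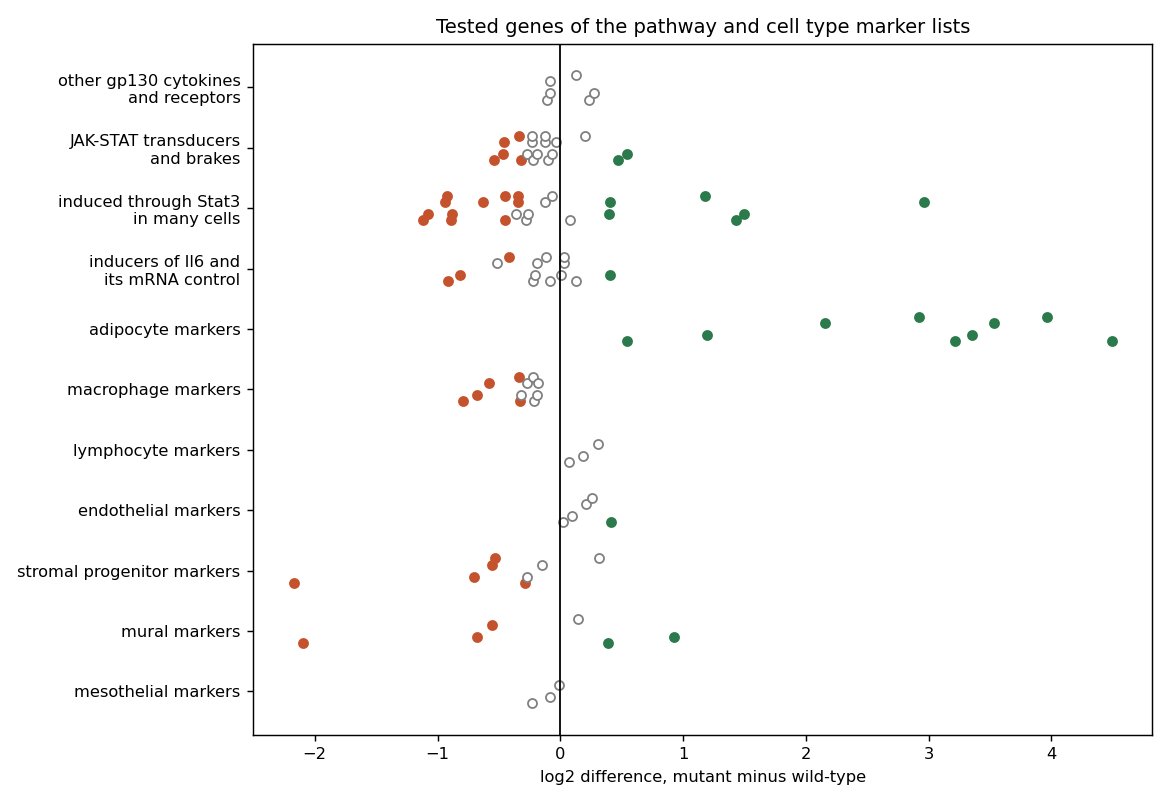
Log2 difference (mutant minus wild-type) of every tested gene of the pathway lists and of the cell type marker lists; green points rose and orange points fell at an adjusted p under 0.05, and open grey points did not pass. Genes induced through Stat3 lie on both sides of 0, all 9 adipocyte markers lie to the right, and no macrophage marker does.

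Marker genes of several cell types also differed, where 18.7% of all genes tested fell and 11.1% rose. Of 10 adipocyte markers 9 were tested (Plin1 had no probe set of its own) and all 9 rose, and their summed linear signal was 37628 to 38616 on the wild-type arrays and 111362 to 113119 on the mutant arrays. Of 11 macrophage markers 5 fell, 6 did not pass and none rose in limma (6 lower and 0 higher at an unadjusted p under 0.05), with a median difference of -0.32 and summed signals of 95716 to 100498 against 81648 to 81763. All 11 lay above the filter in both genotypes, with Adgre1 at 12.06 and 12.04 against 11.89 and 11.83. Of 8 stromal progenitor markers 5 fell and 3 did not pass (median -0.41, summed signals 49075 to 51148 against 36539 to 38609). At an unadjusted p under 0.05 limma gave 6 of these lower and 1 higher. Of 6 mural cell markers 3 fell, 2 rose and 1 did not pass (median -0.21, summed signals 19020 to 20835 against 13171 to 14889). Linear sums are weighted to the brightest probe sets and do not describe every marker of a list. The mural sum is mostly Acta2 (14.14 in wild-type against 13.59 in mutant cultures), and the stromal sum mostly Col3a1 (14.89 against 14.60).

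Endothelial markers gave 1 rise among 5 tested (Tie1 below the filter), with summed signals of 898 to 905 against 970 to 1125. The share called was no higher than the 29.8% of all genes tested. All summed signals cover every marker measured, also those below the filter. Lymphocyte markers gave 0 calls in limma among 3 tested (1 higher and 0 lower at an unadjusted p under 0.05), with Cd3g, Cd79a, Ms4a1 and Nkg7 below the filter and summed signals of 555 to 617 against 642 to 645. Mesothelial markers gave 0 calls among 3 tested in limma (0 in either direction at an unadjusted p under 0.05), with Msln and Lrrn4 below the filter and summed signals of 760 to 895 against 726 to 751. The falls of Il6 (-1.89) and Socs3 (-1.15) were larger than that of any macrophage marker, of which Itgam differed most (-0.79). Both were smaller than the largest falls of the stromal and mural lists, Thy1 (-2.17) and Rgs5 (-2.09). Both mutant Rgs5 values (5.70 and 5.62) lay below the filter. The next largest falls were -0.70 for the stromal marker Col1a1 and -0.68 for the mural marker Myh11. The mural markers Mcam (0.92) and Cspg4 (0.39) rose, and the stromal marker Cd34 differed by 0.32 without passing. The falls of Lif, Osmr, Lifr, Il6st and Il11 lay within the range of the macrophage markers, -0.79 to -0.18. The part of cell make-up in these results was not tested, and in bulk RNA fewer cells of a type and less RNA per cell cannot be told apart.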

How the data were processed

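RNA for the 4 arrays (500 ng each) was labelled with an Affymetrix 3' kit, per the labels' protocols. Whether the arrays of a genotype came from separate animals or cultures is not stated there. Each probe set has a deposited log2 signal, which the authors made with Partek 6.6 and RMA, per the submitters' processing notes. RMA is meant to equalise the distributions of the arrays and compresses differences near background. The deposited signals still had upper quartiles of 8.55 and 8.52 on the wild-type arrays against 8.47 and 8.46 on the mutant arrays. The values themselves showed the log2 scale. Of 45101 probe sets, 64 controls were left out, and 34945 named 1 gene. Each gene was read through its brightest probe set and tested if its mean signal passed a filter at the 40th percentile (6.13). The genotype comparison used limma 3.58.1 (R 4.3.3) on all 4 arrays (2-sided, Benjamini-Hochberg over 13173 genes, threshold 0.05), with 2 residual and 6.21 prior degrees of freedom. The fit was tested on simulated data. Each SE joins the gene's own spread with limma's prior over all genes, which holds more of the degrees of freedom. Both cover only the spread between these arrays, which may be technical, and the number of arrays limits the precision. Named genes were the 10 members and, per pathway list, the up to 4 called genes with the largest difference. Other list genes and single cell type markers given with values were named outside that rule, some after their values were seen. Members and lists were chosen with earlier results of these data known. Alternatives changed the filter, the probe set rule, the scaling, the variance model, the replicate block and the arrays used.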

Additional observations from a re-analysis of the deposited data

How the results depend on the processing

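Il6, Lif, Osmr and Socs3 stayed lower and past the threshold in all 13 alternatives run, with log2 differences of -2.01 to -1.77, -0.96 to -0.45, -0.84 to -0.56 and -1.18 to -0.98. Osm, Il6ra and Stat3 passed in none of 13. Stat3 changed sign with all probe sets averaged (0.041) and, with 1 array left out at a time, ranged from -0.172 to 0.034, positive without wild-type replicate 2. Osm ranged from -0.046 to 0.140 with 1 array left out, negative without wild-type replicate 1 or mutant replicate 1. Leaving out 1 array at a time gave 4 to 7 of the 10 genes lower and 0 higher, with 809 to 2627 genes called higher and 1042 to 3722 lower over all genes tested. With the replicate number as a block, 7 of 10 were lower, and 1802 genes were called higher and 3077 lower, against 1456 and 2468 without it. In the block fit all genes named here had the same SE (0.117), so its adjusted p-values rest on a variance shared by the genes. That fit gave the low end of the adjusted p ranges quoted for Il11, Lifr, Il6st, Jak2, Socs5, Stat5a and Zc3h12a. Same-numbered arrays deviated together only weakly (correlation 0.159 over genes), and the labels do not say that a number marks a shared animal or day. With the filter at the 50th percentile 9 of the 10 genes were tested and 6 were lower. The scaling moved the counts over all genes tested. A second quantile normalization gave 1574 higher and 1993 lower (15.1%), and centring each array on its median gave 1304 and 2938 (22.3%). In both, 7 of the 10 genes were lower. Signals near the filter, as for Il11 and for Il6 in the mutant, limit how exactly a fold can be read.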
